A study of Homo sapiens
Mus musculus with 2 samples.

Results

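The 15 genes described here encode the core of DNA replication in S phase, and each was measured as a human gene and as its mouse orthologue, which gives 30 members out of 29259 genes in the count tables (14519 human and 14740 mouse). They were chosen by name and function, with earlier results of these data known: the 6 subunits of the MCM helicase (MCM2 to MCM7), the licensing factors CDC6 and GMNN, CDC45, the fork proteins PCNA and FEN1, and the nucleotide enzymes RRM1, RRM2, TYMS and DUT. All 30 had counts in both libraries.

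In every dividing cell the MCM helicase is loaded on DNA as a hexamer before S phase, with the help of CDC6, and geminin (GMNN) blocks renewed loading once replication has begun. CDC45 then joins the helicase, PCNA clamps the polymerases to the template, FEN1 trims lagging-strand fragments, and ribonucleotide reductase (RRM1 and RRM2), thymidylate synthase (TYMS) and dUTPase (DUT) supply and guard the nucleotide pool. The transcripts of most of these genes peak around the passage from G1 into S phase. In dividing lymphocyte lines they are therefore read as a mark of cells preparing or making DNA.

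The study set several single-cell RNA-seq methods beside each other on a mixture, in equal parts, of 4 lymphocyte lines. Jurkat is a human T leukaemia line, TALL104 a human cytotoxic T leukaemia line, EL4 a mouse T lymphoma line and IVA12 a mouse B cell hybridoma. The 2 libraries used here were both made by Drop-seq, in which cells and barcoded beads meet in droplets and each captured transcript is counted by its unique molecular identifier (UMI), and they differ in the loading concentration, 150 or 300 cells per µl. There was 1 library per concentration, so nothing that differs between the concentrations could be tested.

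The tables hold 2000 barcodes with 2398956 UMIs at 150 cells per µl and 4000 barcodes with 8707135 UMIs at 300 cells per µl, of which 190 and 1124 had at least 1000 UMIs. No barcode of that depth was shared between the libraries. Barcodes with at least 90% of their UMIs from 1 species were clustered without the members and without the other cell-cycle genes listed below, and clusters were named from marker genes: 41 and 342 barcodes were EL4-like, 27 and 215 IVA12-like and 87 and 318 Jurkat-like in the 150 and the 300 library. T-cell markers of EL4 summed to 3841 and 4306 of every 1000000 UMIs in EL4-like barcodes and to 47.1 and 82.2 in IVA12-like barcodes, and B-cell markers of IVA12 to 155 and 249 against 8200.2 and 8446. No cluster could be named from the TALL104 markers, which gave 23 and 68 UMIs in the Jurkat-like barcodes. Of the 13 such markers with counts, 7 and 8 had a UMI there, and GZMB and GNLY were among those at 0 in both libraries. The human lines therefore could not be set against each other. A further 17 and 128 shallow mouse barcodes stayed unnamed, and 18 and 121 barcodes held both species.

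A level below is in CPM, the UMIs of a gene per 1000000 UMIs of its species over the barcodes of a line in 1 library, and its interval is an exact Poisson 95% interval, which covers counting error only. Summed over the 15 genes, the level in EL4-like barcodes was 4337 (4170 to 4509) in the 150 library and 5014 (4935 to 5093) in the 300 library. IVA12-like barcodes stood at 3189 (3025 to 3359) and 3053 (2979 to 3128), and Jurkat-like barcodes at 4378 (4214 to 4546) and 4741 (4625 to 4860). Replication transcripts thus took a smaller share of the mouse B line's RNA than of the mouse T line's in both libraries, with intervals far apart. Fewer cells in S phase and less of these transcripts per cell cannot be told apart in such sums, and the counts per barcode are described further on. Summed over a list of 28 other replication genes, the level was 3613 and 3599 in EL4-like, 3361 and 2889 in IVA12-like and 3236 and 3204 in Jurkat-like barcodes. The 23 listed G2 and mitosis genes gave 7377 and 7177, 4579 and 5893, and 6131 and 6727 in the same order. Both lists were therefore also lower in the mouse B line than in the mouse T line in each library.

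**Figure D1:**
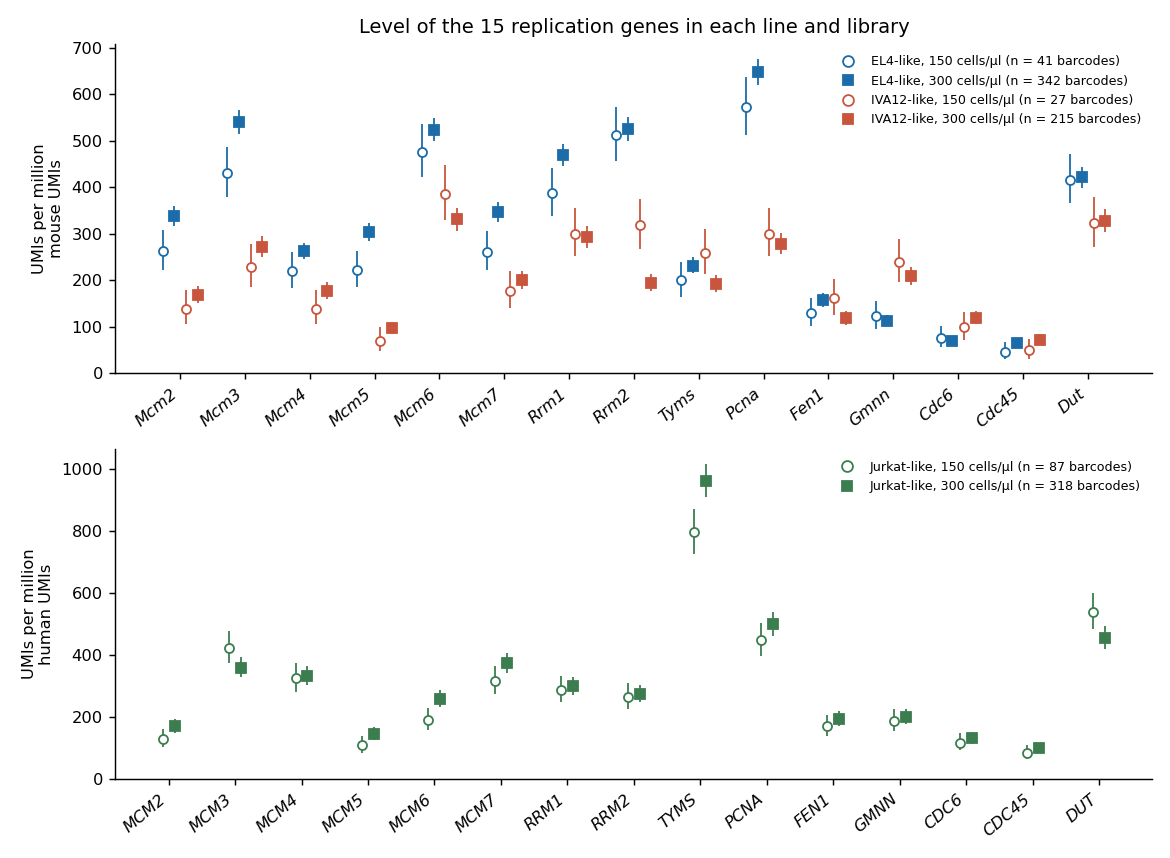
Level of each of the 15 genes (y axis, CPM, linear) in each line and library, with exact Poisson 95% intervals; open circles are the 150 and filled squares the 300 cells per µl library. EL4-like barcodes (blue) sit above IVA12-like barcodes (red) for the 6 MCM genes, Rrm1, Rrm2, Pcna and Dut, below them for Gmnn, and Jurkat-like barcodes (green, human genes) are in the lower panel.

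The difference between the mouse lines was tested gene by gene on UMI sums, with 2 sums per line and the library as a block (edgeR quasi-likelihood test, Benjamini-Hochberg adjustment over 8839 mouse genes, called at 0.05). The T and B lines differ widely, and 57.9% of all genes tested were called. Of the 15 members, 12 were called: 10 were lower in IVA12-like barcodes, where 29.9% of all genes were called lower, and 2 were higher, where 28.0% were called higher. The median log2 difference was -0.61 over the 15 members and -0.04 over all genes. All 15 passed the filter on low counts.

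All 6 helicase subunits were lower in the B line. Mcm5 (mm10_ENSMUSG00000005410) had a level of 222 and 303 in EL4-like and of 69.5 and 96.8 in IVA12-like barcodes in the 150 and the 300 library, a log2 difference of -1.69 (SE 0.14, edgeR adjusted p = 7.6e-31). Mcm2 (mm10_ENSMUSG00000002870) stood at 263 and 338 against 139 and 169, and Mcm3 (mm10_ENSMUSG00000041859) at 430.2 and 540.3 against 229 and 271, log2 differences of -1.02 (SE 0.13) and -1.004 (SE 0.11). Mcm7 (mm10_ENSMUSG00000029730) went from 261 and 347 to 177 and 201 (log2 -0.76, SE 0.12), Mcm4 (mm10_ENSMUSG00000022673) from 220.2 and 263 to 139 and 178 (log2 -0.62, SE 0.13) and Mcm6 (mm10_ENSMUSG00000026355) from 476 and 524 to 386 and 331 (log2 -0.57, SE 0.11). For each of the 6 genes both EL4-like levels lay above both IVA12-like levels, but the share of all genes separated in this way was not counted. The subunits of 1 hexamer thus differed between the lines by unequal amounts, from -0.57 for Mcm6 to -1.69 for Mcm5. The edgeR adjusted p of the other 5 subunits lay between 1.76e-17 and 5.28e-06.

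Among the nucleotide enzymes, Rrm2 (mm10_ENSMUSG00000020649), the regulated small subunit of ribonucleotide reductase, had a level of 512 and 525 in EL4-like and of 318 and 195 in IVA12-like barcodes (log2 -1.20, SE 0.11, edgeR adjusted p = 2.11e-24). The 2 libraries gave log2 differences of -0.69 and -1.43, so the size of this difference depended on the library more than for the other called genes of the group. Its partner Rrm1 (mm10_ENSMUSG00000030978), the large catalytic subunit, stood at 388 and 469 against 300.5 and 293 (log2 -0.61, SE 0.11), and Dut (mm10_ENSMUSG00000027203) at 417 and 421 against 323 and 329 (log2 -0.40, SE 0.11). Tyms (mm10_ENSMUSG00000025747), which makes dTMP from dUMP, was not called: its level was 199.8 and 232 against 258 and 193, higher in the B line in the 150 library and lower in the 300 library (log2 -0.10, SE 0.13).

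The sliding clamp Pcna (mm10_ENSMUSG00000027342) had a level of 572 and 647 in EL4-like and of 300.5 and 279 in IVA12-like barcodes (log2 -1.15, SE 0.11, edgeR adjusted p = 2.98e-24). Fen1 (mm10_ENSMUSG00000024742), the flap nuclease that works on PCNA, was not called and its libraries pointed in opposite directions, with 129.8 and 157 against 161 and 119 (log2 -0.24, SE 0.15).

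The licensing factors went against the rest. Gmnn (mm10_ENSMUSG00000006715), the inhibitor of helicase loading, had a level of 123 and 112 in EL4-like and of 239.9 and 209 in IVA12-like barcodes, a log2 difference of 0.88 (SE 0.14, edgeR adjusted p = 1.07e-09). Cdc6 (mm10_ENSMUSG00000017499), the loader, stood at 76.8 and 70.1 against 98.7 and 119 (log2 0.63, SE 0.18, edgeR adjusted p = 0.00107). For both genes the levels of the lines did not overlap, and here too the share of all genes was not counted. Cdc45 (mm10_ENSMUSG00000000028), at 46.1 and 64.6 against 49.3 and 72.2, was not called (log2 0.11, SE 0.20).

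**Figure D2:**
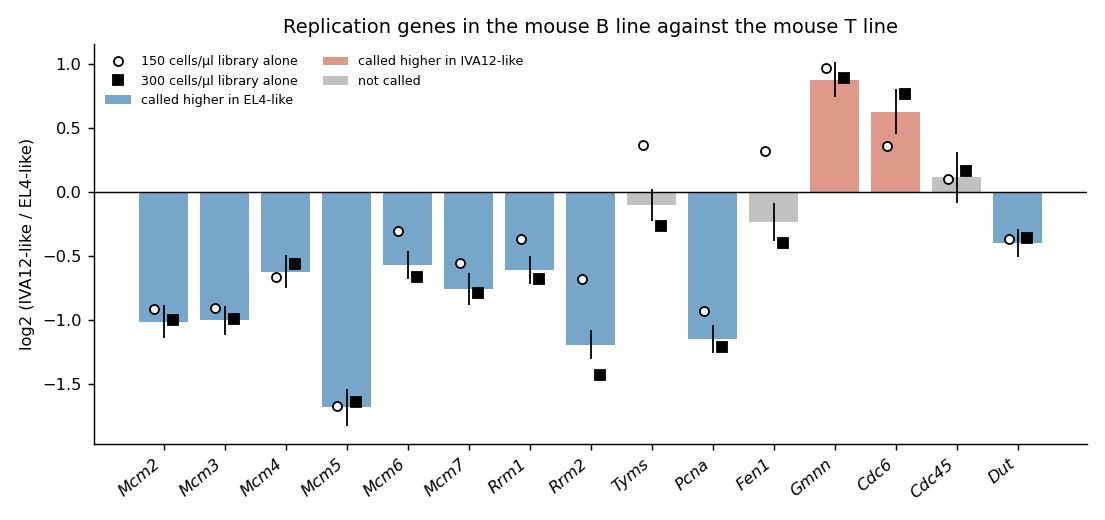
Difference between the mouse lines for each of the 15 genes (y axis, log2 of the IVA12-like over the EL4-like level). Bars are the edgeR fit with its SE, coloured by the call, and points are each library alone on the scale of CPM. The libraries lie on opposite sides of 0 for Tyms and Fen1 and on the same side for the other 13 genes.

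With 4 sums and the library as a block, the fit left 1 residual degree of freedom. The edgeR test pools the spread over all genes, so these p-values do not measure a gene's own variation between the 2 libraries alone. Rrm2 (log2 -0.69 and -1.43 in the 150 and the 300 library) and Mcm3 (-0.91 and -0.99) both had an SE of 0.11. The labels give each library as a mixture of the 4 lines and do not say whether both came from 1 preparation. What differs between the libraries may be technical. Without the library block 8 members were called, as Mcm6, Rrm1, Cdc6 and Dut lost the call, and DESeq2 called 11, without Cdc6.

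The same comparison in the other 28 replication genes gave 13 called lower and 5 called higher in IVA12-like barcodes, with a median log2 difference of -0.37. DESeq2 gave 8 and 2, the fit without the library block 9 and 2, and without the 300 library the median was -0.07, with no test. Tipin, part of the fork protection complex and the listed gene with the most UMIs, was higher (log2 0.44, SE 0.11), as was Prim1, the small primase subunit (log2 0.41, SE 0.14). Usp1, a deubiquitinase that acts on PCNA, was lower (log2 -0.80, SE 0.12), and the histone chaperone Nasp did not pass the test (log2 -0.01, SE 0.12). Of 23 G2 and mitosis genes, 13 were lower and 2 higher, with a median of -0.37. Hmgb2 (log2 -1.03), Top2a (log2 -0.49) and Mki67 (log2 -0.32) were lower, and the spindle genes Tpx2 (log2 0.94) and Dlgap5 (log2 0.75) were higher.

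Tk1, the thymidine kinase that salvages thymidine beside the Tyms route, was singled out after its values were seen. No UMI of it was counted in EL4-like barcodes in either library, against 46 and 130 UMIs in IVA12-like barcodes, a level of 103 and 61.4. Set against a floor of 3 counts per library in EL4-like barcodes, its level was at least 20.1-fold higher in IVA12-like barcodes at 150 and at least 63.3-fold higher at 300 cells per µl.

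In Jurkat-like barcodes the human members were counted in the same way, with no second human line to set them against. The helicase subunits MCM2 (hg19_ENSG00000073111) and MCM5 (hg19_ENSG00000100297) had levels of 128 and 169.8 and of 109 and 146 in the 150 and the 300 library. MCM3 (hg19_ENSG00000112118) stood at 422 and 358, MCM4 (hg19_ENSG00000104738) at 324 and 331, MCM6 (hg19_ENSG00000076003) at 189.8 and 257, and MCM7 (hg19_ENSG00000166508) at 316 and 373. TYMS (hg19_ENSG00000176890) had 795 (726 to 868) and 959.9 (908 to 1014) CPM, where its mouse orthologue had between 193 and 258 in the mouse lines. RRM1 (hg19_ENSG00000167325) stood at 287 and 298, RRM2 (hg19_ENSG00000171848) at 264 and 274, and DUT (hg19_ENSG00000128951) at 539 and 454. PCNA (hg19_ENSG00000132646) had a level of 448 and 499, FEN1 (hg19_ENSG00000168496) of 169 and 194, GMNN (hg19_ENSG00000112312) of 187 and 198, CDC6 (hg19_ENSG00000094804) of 117 and 131 and CDC45 (hg19_ENSG00000093009) of 84.3 and 98.1. The levels of a human gene and of its mouse orthologue are on separate scales and were not tested against each other.

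Between the libraries, 13 of the 15 genes had a higher level at 300 than at 150 cells per µl in EL4-like barcodes (median log2 ratio 0.25, from -0.13 for Cdc6 to 0.49 for Cdc45), 13 of 15 in Jurkat-like barcodes (median 0.17) and 8 of 15 in IVA12-like barcodes (median 0.03). The Poisson intervals of the libraries did not overlap for Mcm2, Mcm3, Mcm5, Mcm7 and Rrm1 in EL4-like, for Rrm2 and Tyms in IVA12-like and for MCM6 and TYMS in Jurkat-like barcodes. These ratios were computed for the 15 genes only. The share of all genes that changed in the same way is not known, so the counts cannot be read as particular to replication genes. In IVA12-like barcodes Rrm2 and Tyms were the reverse of the EL4-like pattern, with log2 ratios of -0.71 and -0.42. EL4-like barcodes had a median of 12430 UMIs in the 150 and 8160.5 in the 300 library, IVA12-like barcodes 14775 and 8525 and Jurkat-like barcodes 6383 and 3713.5, so depth moves with the concentration. The part of depth in these ratios was not tested beyond a cut of each line at its median depth: in the 300 library the deeper EL4-like barcodes gave a summed level of 4825 and the shallower ones 5460, and in Jurkat-like barcodes the values were 4530.0 and 5238. In IVA12-like barcodes of the 150 library the order was the reverse, with 3538 in the deeper and 2456 in the shallower barcodes.

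Free RNA sets a floor to detection in droplets. In single-species barcodes of at least 1000 UMIs, a mouse member had a UMI in 0 to 5.75% of the 87 human barcodes at 150 and in 1.57 to 5.35% of the 318 human barcodes at 300 cells per µl, at median depths of 6383 and 3713.5 UMIs. A human member had a UMI in 0 to 4.71% of 85 and in 0.438 to 2.77% of 685 mouse barcodes, at median depths of 12164 and 7211 UMIs. In its own species' lines every member was found in 30.8% or more of barcodes.

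For counts per barcode, each barcode was thinned at random to 2000 UMIs of its species, which left out the shallower ones (11 EL4-like, 3 IVA12-like and 45 Jurkat-like at 300, and 5 Jurkat-like at 150 cells per µl). EL4-like barcodes then held a median of 8 UMIs of the 15 genes in the 150 library (quartiles 6 and 10, n = 41) and of 10 in the 300 library (7 and 13, n = 331). IVA12-like barcodes held 4 (2 and 9, n = 27) and 5 (3 and 8, n = 212), and Jurkat-like barcodes 8 (6 and 12, n = 82) and 9 (7 and 13, n = 273). The whole distribution of the mouse B line lay lower, and its low end stood out: 8 of 27 and 48 of 212 IVA12-like barcodes had at most 2 UMIs of the 15 genes (29.6% and 22.6%), against 0 of 41 and 11 of 331 EL4-like barcodes. At the upper quartile the lines were also apart in the 300 library, at 8 and 13 UMIs.

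**Figure D3:**
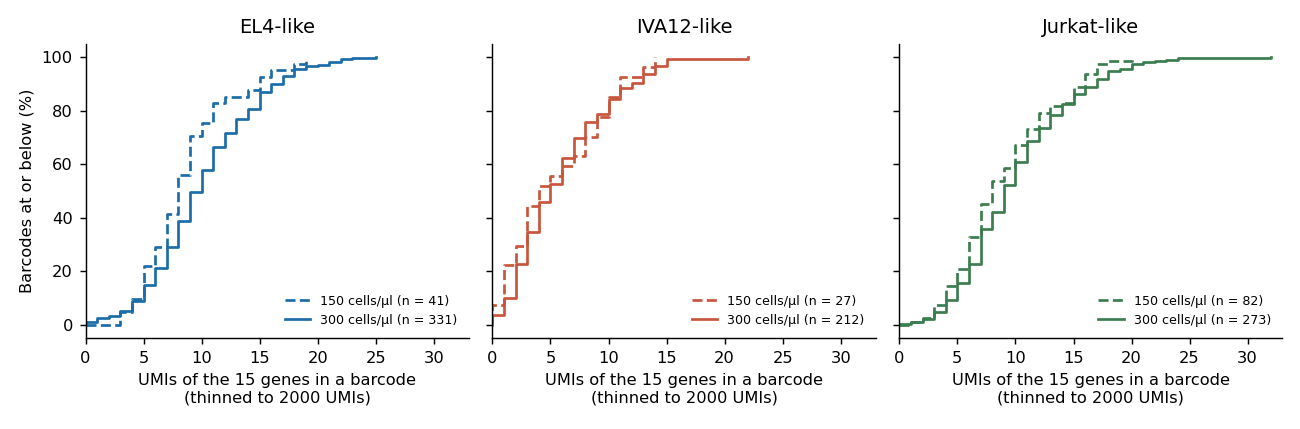
Share of barcodes (y axis, %) at or below a number of UMIs of the 15 genes (x axis, each barcode thinned to 2000 UMIs of its species), for each line, dashed for the 150 and solid for the 300 cells per µl library. IVA12-like barcodes reach 22.6% at 2 UMIs in the 300 library, where EL4-like barcodes reach 3.32% and Jurkat-like barcodes 2.2%.

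The spread between barcodes was larger than counting alone gives, for which the variance equals the mean. The variance of the summed count was 1.73 and 2.11 times its mean in EL4-like, 3.24 and 2.83 times in IVA12-like and 2.09 and 2.31 times in Jurkat-like barcodes. For single genes the ratio in the 300 library lay between 0.93 and 1.88, with Rrm2 in IVA12-like barcodes at the top. The mitosis list varied more, at 5.19, 5.99 and 7.94 times its mean in the 3 lines of the 300 library.

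Pair by pair, the correlation across barcodes was weak. Most of the genes had about 1 UMI or fewer per thinned barcode, and the part of such low counts in the weak correlation was not tested. The median Pearson r over all pairs of the 15 genes was 0.026 and 0.041 in EL4-like, 0.12 and 0.10 in IVA12-like and 0.041 and 0.083 in Jurkat-like barcodes, and in the 300 library 75.2%, 87.6% and 83.8% of the pairs were above 0. Single pairs did not repeat well: across the pairs the values of the 2 libraries were related with an r of 0.17, 0.13 and 0.15. The pairs with an r over 0.2 in both libraries numbered 0 in EL4-like, 6 in IVA12-like and 2 in Jurkat-like barcodes. The highest of them by its lower value was Pcna with Cdc6 in IVA12-like barcodes, at 0.49 and 0.33, and the orthologous pair PCNA with CDC6 was 1 of the 2 in Jurkat-like barcodes, at 0.22 and 0.21.

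Sums held more than pairs. The 6 MCM genes together and the 9 other members together had an r of 0.13 and 0.29 in EL4-like, 0.45 and 0.43 in IVA12-like and 0.36 and 0.30 in Jurkat-like barcodes. The summed members and the 28 other replication genes, none of which is a member, had an r of 0.58 and 0.43, 0.71 and 0.65, and 0.50 in both Jurkat-like sets. With the 23 mitosis genes the r was -0.39 and -0.12 in EL4-like and -0.16 and -0.33 in Jurkat-like barcodes, but 0.51 and 0.20 in IVA12-like barcodes. The points of each value are barcodes of 1 library, which share their depth after thinning but not the number of genes found, and that number had an r with the summed members of 0.31 and 0.070 in EL4-like, 0.37 and 0.29 in IVA12-like and 0.27 and 0.074 in Jurkat-like barcodes. In the 300 library the member with the highest r with the other 14 was PCNA in Jurkat-like (0.31), Mcm3 in IVA12-like (0.38) and Rrm2 in EL4-like barcodes (0.31). In the 150 library these 3 stood at 0.30, 0.29 and 0.23, below other members of the same line.

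To ask whether other replication genes were higher where the helicase genes were, the barcodes of each line and library were cut at the median of their thinned MCM2 to MCM7 count into an MCM-high and an MCM-low set of equal size, and UMIs were summed per set. Mouse barcodes gave 8 sums, fitted with line and library as a block (3 residual degrees of freedom), and human barcodes gave 4 sums (1 residual degree of freedom). The 6 MCM genes made the sets and got no test. A cut of a count is a range and not a cell type: at the cut itself lay 52 of 331 EL4-like, 46 of 212 IVA12-like and 48 of 273 Jurkat-like barcodes of the 300 library. Median depths of the sets were close in that library, at 8601 and 8164 UMIs for low and high EL4-like, 8337 and 8838.5 for IVA12-like and 3877 and 4219.5 for Jurkat-like barcodes, and furthest apart in IVA12-like barcodes of the 150 library, at 14544 and 17089.

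In mouse barcodes 1 of the 9 other members was called higher in the MCM-high sets, where 0.0706% of all 7082 genes tested were called, 0.0565% higher and 0.0141% lower. It was Cdc6, which went from 40.1 and 49.3 CPM in the low to 115 and 90.8 in the high EL4-like sets of the 150 and the 300 library, and from 68.2 and 72.4 to 129 and 161 in the IVA12-like sets (log2 1.04, SE 0.16, edgeR adjusted p = 0.00284). All 4 pairs of sets moved the same way, as they also did for Rrm1, Rrm2, Tyms, Pcna, Fen1 and Dut. For Gmnn and Cdc45, 3 of the 4 pairs were positive. The share of all genes with 1 sign in the 4 pairs was not counted. The other 8 members had positive values that did not pass: Rrm2 0.81 (SE 0.18, edgeR adjusted p = 0.0812), Tyms 0.70, Fen1 0.69, Pcna 0.56, Dut 0.46, Rrm1 0.40, Gmnn 0.37 and Cdc45 0.25 on the log2 scale. Their median with Cdc6 was 0.56, against -0.01 over all genes tested. How many passed depended on the cut: 4 with the outer tertiles of barcodes in place of all, 4 with thinning to 1000 or 3000 UMIs, 8 with the MCM share of unthinned UMIs as the score, 5 without the 150 library, and none without the 300 library or in DESeq2, where 134 of all genes had an unadjusted p under 0.05 (497 in edgeR).

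In human barcodes 2 of the 9 other members were called higher, where 0.499% of all 6419 genes tested were called and 0.125% were called higher. PCNA went from 318 and 377 CPM in the low to 599 and 607 in the high sets of the 150 and the 300 library (log2 0.78, SE 0.13, edgeR adjusted p = 1.86e-06), and RRM2 from 209 and 225 to 326 and 336 (log2 0.60, SE 0.15, edgeR adjusted p = 0.0244). CDC6 just missed, from 87.2 and 95.5 to 149 and 160.0 (log2 0.76, SE 0.21, edgeR adjusted p = 0.0612). FEN1 (0.51), GMNN (0.44), DUT (0.37), CDC45 (0.27) and TYMS (0.23) had positive log2 values that did not pass, and RRM1 stood at -0.02 (SE 0.15). Counts of called members ran from 0 in DESeq2 (24 of all genes with an unadjusted p under 0.05) and 1 with thinning to 1000 UMIs to 6 with the share of unthinned UMIs.

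The reverse cut, added after the first was seen, split barcodes by the 9 other members and tested the MCM genes. In mouse barcodes 5 of the 6 were called higher in the high sets, where 0.808% of all 7181 genes were called, 0.613% higher and 0.195% lower: Mcm6 (log2 0.77, SE 0.12), Mcm3 (0.67, SE 0.12), Mcm4 (0.62, SE 0.13), Mcm5 (0.54, SE 0.12) and Mcm2 (0.44, SE 0.11), and Mcm7 stood at 0.45 (SE 0.12, edgeR adjusted p = 0.0608). In human barcodes MCM3 was called (0.66, SE 0.12, edgeR adjusted p = 0.022), where 0.416% of all 6484 genes were called, 0.154% higher and 0.262% lower, and the other 5 had values from 0.28 for MCM2 to 0.74 for MCM5. DESeq2 called none of the 6 in either species, and 165 mouse and 40 human genes had an unadjusted p under 0.05 there. In edgeR, EL4-like barcodes alone gave none of the 6 called (349 of all genes with an unadjusted p under 0.05) and IVA12-like barcodes alone gave 4.

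**Figure D4:**
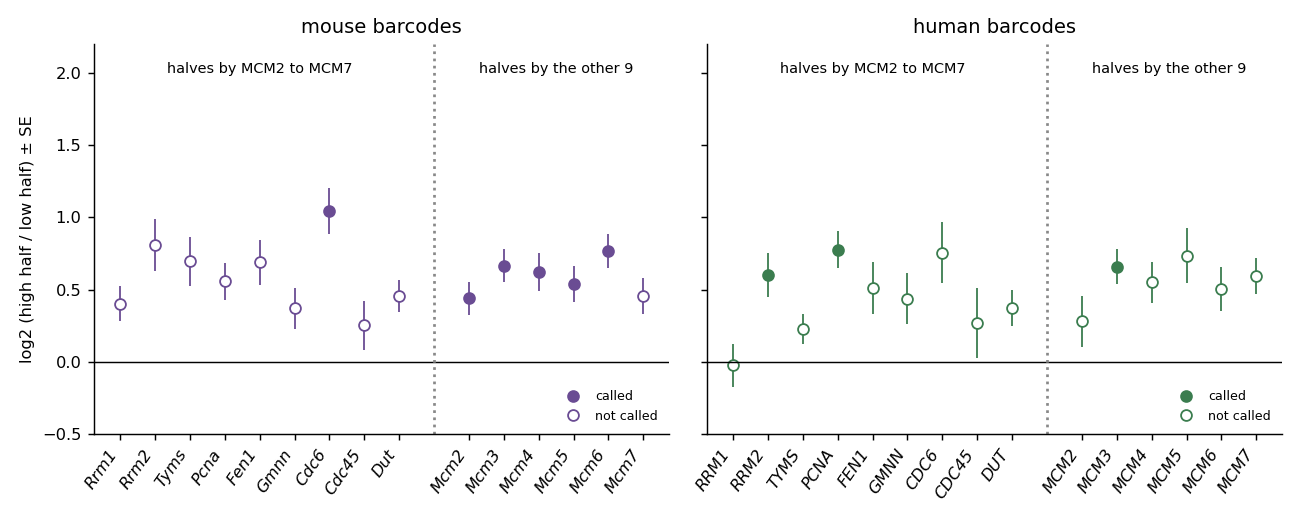
Log2 difference between barcodes high and low in replication transcripts (y axis, edgeR fit with SE) for mouse (left, EL4-like and IVA12-like together) and human (right, Jurkat-like) barcodes. Left of each dotted line the 9 other genes are shown for sets cut by MCM2 to MCM7, and right of it the MCM genes for sets cut by the 9 others. Filled points passed the test, and every value but that of RRM1 is above 0.

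Most of the other replication genes had positive values. In the mouse MCM-high sets all 28 were positive, with a median log2 difference of 0.59, where 3373 of all 7082 genes tested were positive. Of the 28, 3 were called higher and none lower: Ccne2, the cyclin of the entry into S phase (1.36, SE 0.28), the checkpoint adaptor Clspn (0.83, SE 0.16) and Prim1 (0.68, SE 0.13). In the human sets 2 of 26 tested were called, CCNE2 (2.06, SE 0.34) and USP1 (0.64, SE 0.17). There 24 of the 26 were positive, with a median of 0.45, where 3238 of all 6419 genes tested were positive. The exceptions among the 26 were RAD51AP1 (-0.24) and CDT1 (-0.01), which did not pass. The 3 with the most UMIs, Tipin, Nasp and Usp1 in mouse (0.57, 0.28 and 0.43) and NASP, SLBP and HELLS in human barcodes (0.25, 0.28 and 0.44), did not pass.

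The G2 and mitosis genes did not move alike in the 3 lines. In the human MCM-high sets 13 of 23 were called lower and none higher, with a median log2 difference of -0.68, where 0.374% of all genes tested were called lower. TOP2A fell by 0.86 (SE 0.12, edgeR adjusted p = 1.16e-08), CCNB1 by 0.90 (SE 0.14) and PLK1 by 1.10 (SE 0.24), whereas HMGB2 (-0.30) and MKI67 (-0.16) did not pass. The number called lower was 5 with thinning to 1000 UMIs, 17 with thinning to 3000 UMIs and 0 in DESeq2, where 11 of the 23 had an unadjusted p under 0.05 and the median was -0.68. In the mouse sets none of the 23 was called in either direction, the median was 0.01, and 3 of them had an unadjusted p under 0.05. That fit pools lines with different values: EL4-like barcodes alone gave 4 of 23 called lower, none positive and a median of -0.33. IVA12-like barcodes alone gave none called, all 23 positive and a median of 0.43, with 7 at an unadjusted p under 0.05 (280 of all genes). The share of all genes that were positive in each line alone was not counted. In DESeq2, on the pooled mouse sets, none of the 23 was called or had an unadjusted p under 0.05. The species were not tested against each other. Without the human cluster led by mitosis genes, 1 member, RRM2, was called and PCNA was not, none of the 23 mitosis genes was called (edgeR, 4 with an unadjusted p under 0.05, median -0.28), and 2 genes were called in all.

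Of genes in no list, none met the naming rule in mouse barcodes. In human barcodes hg19_ENSG00000189057 (log2 1.45, SE 0.25) and hg19_ENSG00000116062 (1.04, SE 0.24) had the largest positive, and hg19_ENSG00000112984 (-1.78, SE 0.32) and hg19_ENSG00000118193 (-1.32, SE 0.24) the largest negative values that passed. The tables used here do not pair these identifiers with names.

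Between the mouse lines, the 2 cuts were compared by an interaction of line and set. With sets cut by MCM genes no gene was called (edgeR, 254 of 7082 with an unadjusted p under 0.05). Of all 7082 genes, 3527 had a larger value in IVA12-like barcodes. The 9 other members all had a larger value there, from 0.02 for Cdc6 to 1.13 for Rrm2 on the log2 scale, and 3 of them had an unadjusted p under 0.05. The 23 mitosis genes were also all larger there, with a median of 0.87 and 18 with an unadjusted p under 0.05, and none passed the adjustment. With sets cut by the 9 others, 2 of the 6 MCM genes were called with a larger difference in IVA12-like barcodes, where 0.0696% of all 7181 genes were called, 0.0557% that way and 0.0139% the other. Mcm6 went from 180.0 and 191 to 532 and 462 in IVA12-like barcodes of the 150 and the 300 library, and from 442 and 444 to 491 and 604 in EL4-like barcodes (log2 difference 1.35 against 0.35, edgeR adjusted p of the interaction = 0.00948). Mcm3 went from 103 and 167 to 324 and 369 against 387 and 483 to 475 and 594 (log2 1.26 against 0.30, edgeR adjusted p = 0.0457). The sets themselves were also further apart in ratio in IVA12-like barcodes, with a mean of 1.45 and 5.63 UMIs of the 9 genes in low and high sets of the 300 library against 3.02 and 7.86 in EL4-like barcodes.

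Within the lines the clusters, which were made without these genes but from the same cells, differed in replication transcripts, and this is a description with no test. Among Jurkat-like barcodes the cluster led by mitosis genes such as PLK1, UBE2C and CCNB1 had a summed level of 3040.1 and 3468 of the 15 genes in the 150 and the 300 library and of 9147 and 10572 of the mitosis genes. The largest human cluster, over both libraries, had 5333 and 5438 of the 15 genes and 6390.0 and 6459 of the mitosis genes. Another human cluster held 34 barcodes of the 150 and 3 of the 300 library, so it may stand for a library and not for a state. In the 300 library the EL4-like clusters had 5417 and 4548 of the 15 genes and 8708 and 5406 of the mitosis genes, so there both lists were higher in the same cluster. A small cluster of 9 IVA12-like barcodes, all of the 300 library, had 717 of the 15 genes and 999.98 of the mitosis genes, and the other 206 IVA12-like barcodes of that library had 3121 and 6036.

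**Figure D5:**
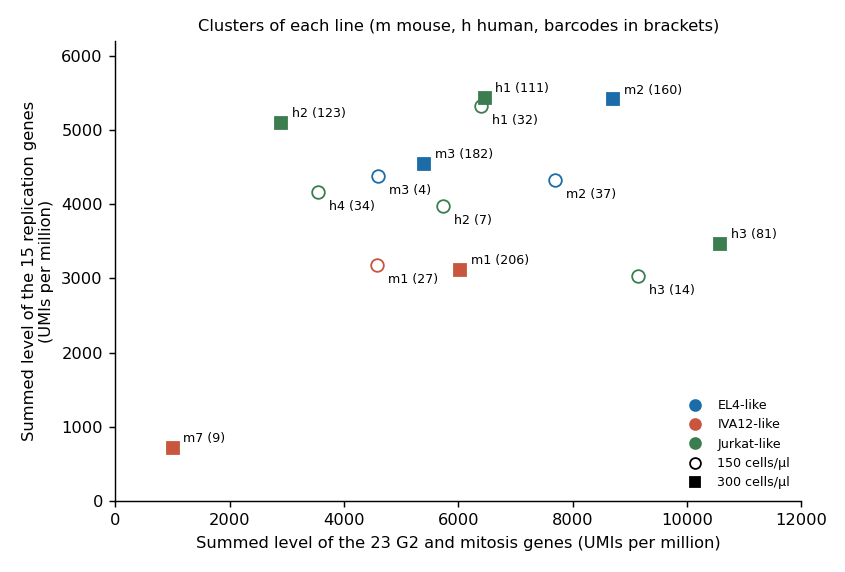
Summed level of the 15 replication genes (y axis) against that of the 23 G2 and mitosis genes (x axis), both in CPM, for each cluster of 4 or more barcodes of each line in each library (open circles 150, filled squares 300 cells per µl, number of barcodes in brackets). The human cluster h3, led by mitosis genes, is at the right with 3040.1 and 3468 of the 15 genes, and the 9 barcodes of mouse cluster m7 are at the lower left.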

How the data were processed

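The 2 Drop-seq libraries of 1 cell mixture (150 and 300 cells per µl) were deposited by the authors as UMI counts per gene and barcode, with human and mouse identifiers in 1 table. The submitters' processing notes name STAR 2.4.2a, hg19 and mm10. The study's methods give a joined reference of both builds with Ensembl annotations.

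Leiden clustering took barcodes from 1000 UMIs upward in which 1 species held 90% or more (scanpy 1.11.5, resolution 0.5, 2000 variable genes, 15 components and 15 neighbours), and 18 and 121 barcodes of both species (median 1237 and 1241 UMIs) were left out. Whether these were doublets or shallow barcodes with free RNA was not tested. No doublet caller was run, and doublets within a species were not removed. UMIs were summed per line, set and library and fitted with edgeR 4.0.16 in R 4.3.3 (TMM, filterByExpr). DESeq2 1.42.0, other filters, scores and thinning depths were tried. The edgeR fits of the mouse lines and of the MCM-high and MCM-low sets of each species were tested on simulated data. The other fits were not.

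The members and lists were chosen with earlier results of these data known. Symbols of listed genes were paired with identifiers by hand. Named were all members; of each list, the 3 genes with most UMIs and up to 3 called against its median; of other genes, those with the largest changes at 50 CPM or more, passing the test with 1 sign in all sets. Genes named beyond this rule (Tk1, and called genes of the lists in the MCM comparisons) were chosen after their values were seen. No sequence was read for these genes. A result that the naming rule selected is not reported here.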

Additional observations from a re-analysis of the deposited data

Results flagged for a closer look

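Differences between the mouse lines in the cut by the 9 other members passed their own test for Mcm6, with a log2 difference larger by 1.00 in IVA12-like than in EL4-like barcodes, and for Mcm3, larger by 0.94. Both rest on 8 sums, and the score that made the sets was further apart in ratio in IVA12-like barcodes. Its part in the difference was not tested.

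Replication transcripts also appeared in barcodes outside the comparisons. The unnamed mouse barcodes had a summed level of 2374 CPM (1844 to 3010.2) over 17 barcodes at 150 and of 3947 (3726 to 4177) over 128 barcodes at 300 cells per µl, at median depths of 1468 and 1418 UMIs. Human-rich barcodes of 300 to under 1000 UMIs had 2385 (1770.1 to 3144) and 2858 (2360 to 3431) over 51 and 82 barcodes. That is 50 and 115 UMIs in all. In these human-rich barcodes TALL104 markers reached 1145 and 2386 CPM, and Jurkat markers 3005 and 1491 CPM. Barcodes of 200 to 600 UMIs, taken only where under 50% of the UMIs were human, had 3667 and 3883 CPM of the human genes. Of the mouse genes they had 3055 and 3164 CPM. The human values lay below the Jurkat-like level and the mouse values below the EL4-like level in both libraries. Against the IVA12-like level of 3189 and 3053, the mouse values were lower at 150 and higher at 300 cells per µl. Their Poisson intervals overlapped those of IVA12-like barcodes in both libraries. Whether such barcodes hold cells or free RNA was not tested.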

How the results depend on the processing

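For the mouse lines, 12 members were called under 6 of the 8 alternatives with a test, 11 in DESeq2 and 8 without the library block. DESeq2 called 3142 genes in all, against 5118. With 1 library left out no residual degree of freedom remained, so the log2 differences then had no test. The values not called changed sign: Tyms was 0.00356 in DESeq2, 0.00485 without the library block and 0.40 without the 300 library, and Fen1 0.34 without the 300 library, and they were -0.32 and -0.46 without the 150 library. Other scalings moved the median of all genes from -0.04 to -0.01 (DESeq2 size factors in edgeR), and no called member changed sign.

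The cuts by MCM count were less stable. In mouse barcodes the 9 other members gave 1 call and all genes 5. DESeq2 gave 0 and 0 (134 genes with an unadjusted p under 0.05), no filter 6 and 55, outer tertiles 4 and 20, thinning to 1000 UMIs 4 and 26, to 3000 UMIs 4 and 27, and the share of unthinned UMIs 8 and 63. Leaving out 1 library gave 0 to 5 member calls and 0 to 54 calls in all. EL4-like barcodes alone gave 1 and 10, IVA12-like barcodes alone 0 and 2. In human barcodes, with 2 and 32 calls, DESeq2 gave 0 and 0, no filter 1 and 26, tertiles 4 and 44, thinning to 1000 UMIs 1 and 11, to 3000 UMIs 5 and 66, the share of unthinned UMIs 6 and 55, and leaving out the cluster led by mitosis genes 1 and 2. RRM1 turned positive with tertiles (0.19), thinning to 1000 UMIs (0.17), the share of unthinned UMIs (0.11) and without that cluster (0.10), and CDC45 stood at -0.10 without the 300 and at 0.44 without the 150 library. In the cut by the 9 others, with 5 mouse MCM calls and 58 in all, DESeq2 gave 0 and 2, EL4-like barcodes alone 0 and 8, and IVA12-like barcodes alone 4 and 60 (Mcm2 and Mcm5 lost, Mcm7 gained), and in human barcodes DESeq2 gave 0 and 5. The causes were not tested. No paired analysis of the concentrations was possible because each had 1 library. The library entered the line and set fits as a block, so lines and sets were compared within libraries.

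Summed levels moved past their Poisson interval with equal weight per barcode (5101 in EL4-like and 4956 in Jurkat-like barcodes at 300, 3008 in IVA12-like at 150 cells per µl) and by depth. Shallower barcodes gave 4570.4 (EL4-like, 150), 5460 (EL4-like, 300), 2456 (IVA12-like, 150), 4637 (Jurkat-like, 150) and 5238 (Jurkat-like, 300). Deeper ones gave 4825 (EL4-like, 300), 3538 (IVA12-like, 150) and 4530.0 (Jurkat-like, 300).

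The median r over pairs changed with the thinning depth. Thinned to 1000 UMIs it was -0.022 in EL4-like barcodes at 150, 0.027 and 0.053 in IVA12-like and 0.00585 and 0.032 in Jurkat-like barcodes at 150 and 300 cells per µl, and it was 0.041 in EL4-like barcodes at 300, as at 2000 UMIs. Thinned to 3000 UMIs it was 0.066 and 0.080 in EL4-like, 0.17 and 0.14 in IVA12-like and 0.10 in Jurkat-like barcodes at 150, and the Spearman value in IVA12-like barcodes at 150 was 0.14.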
